A study of Mus musculus with 3 samples.

Results

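The genes described here were 4 genes of insulin-like growth factor (IGF) binding proteins (Igfbp3, Igfbp4, Igfbp5 and Igfbp7), the genes of the IGF1 receptor (Igf1r) and the insulin receptor (Insr), and 2 genes of the substrates that dock on both receptors (Irs1 and Irs2). They were taken by symbol, 8 of 41605 gene rows, and were selected on levels by vessel class and library seen in these same counts, among them a low Igfbp3 level in running vein-like cells. Their levels and ratios are therefore given as a description. Single endothelial cells had been sorted from the gastrocnemius muscle of C57BL/6N mice as CD31+, CD45- and SYTOX blue- events, and unique molecular identifiers (UMIs, one per captured transcript) were counted per gene and cell. The 3 libraries, 1 per group, came from mice labelled as having no treatment (untreated), from single-housed sedentary mice without a wheel, and from single-housed mice that ran voluntarily on a wheel for 14 days. The number, age and sex of the mice, the housing of the untreated mice and any batch are not given in the sources used here, so batch and group cannot be told apart. With 1 library a group there was no replicate check and no test, and every interval below is a 95% interval that covers counting error only.

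IGF1 and insulin are related hormones that act through the tyrosine kinase receptors IGF1R and INSR. The active receptors phosphorylate IRS1 and IRS2, which recruit phosphoinositide 3-kinase (PI3K), and AKT below it restrains the FOXO transcription factors. IGF-binding proteins hold IGFs in blood and tissue and so set how much can reach the receptor. IGFBP3 is the main carrier in blood, IGFBP4 is cut by the protease PAPP-A, IGFBP5 also binds extracellular matrix, and IGFBP7 binds IGFs weakly and is deposited around vessels. Endothelial cells lie between circulating insulin and the muscle fibre, and their insulin receptors are known for a part in nitric oxide release and in the passage of insulin.

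The libraries held 3260 to 4376 barcodes and 5625068 to 8002866 UMIs, and 11554 of 11715 barcodes were kept. Clusters were named from marker genes, with the 8 genes left out of the clustering. Capillary-like cells numbered 2501 untreated, 3056 sedentary and 2376 running, artery-like cells 1158, 645 and 485, vein-like cells 530, 233 and 225, and lymphatic-like cells 27, 10 and 44. All 10 general endothelial markers, Pecam1 and Cdh5 among them, had UMIs in each of these classes in each library. The untreated library stood apart: its capillary-like cells were mostly in cluster 0 (1186 untreated, 86 sedentary, 74 running) and cluster 5 (885, 142, 92). Sedentary and running cells were mostly in cluster 2 (767 and 1094) and cluster 8 (850 and 561). A capillary-like cluster of low depth (cluster 7, median 684.5 UMIs a cell) held 1176 sedentary, 515 running and 115 untreated cells. Between 20 and 32 cell barcodes were shared by each pair of libraries.

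In GENCODE release M21 (GRCm38), Igfbp3 lies on chr11:7206086-7213923 and Igfbp4 on chr11:99041244-99054392, so the genes share a chromosome but are not neighbours. Igfbp5 lies on chr1:72857932-72874884, Igfbp7 on chr5:77349240-77408041, Igf1r on chr7:67952827-68233668, Insr on chr8:3122061-3279617, Irs1 on chr1:82233101-82291416 and Irs2 on chr8:10984681-11008458. All are protein-coding, and no gene model on the same strand overlaps any of them. Gene models on the other strand overlap Igfbp7, Insr, Irs1 and Irs2, and the use of strand in the counting is not given in the sources used here. Igfbp1 lies 3.54 kb from Igfbp3 and Igfbp2 lies 5.46 kb from Igfbp5, both on the opposite strand. In the kept cells Igfbp3 had 8680 UMIs and its neighbour 1, and Igfbp5 had 1377 UMIs and its neighbour 0.

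Promoter sequence of RefSeq (GRCm38.p6) was matched for 7 of the 8 genes, with Insr unmatched. The first pair below is shown because Irs1 and Irs2 were both near 0 in every vessel class. Capitals mark CACGTG, the E-box, and TTGTTTTG, which is the reverse complement of CAAAACAA, letters known from the insulin response sequence of the Igfbp1 promoter. The Irs1 window is chr1:82291450-82291569 and the Irs2 window chr8:11008945-11008988, both on the minus strand and both upstream of the start.
Irs1: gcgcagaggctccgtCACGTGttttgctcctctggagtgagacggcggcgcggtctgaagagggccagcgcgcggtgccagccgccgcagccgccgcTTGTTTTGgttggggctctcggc
Irs2: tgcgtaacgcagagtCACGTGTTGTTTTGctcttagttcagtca
Positions are counted from the RefSeq start, which lies 471 bases upstream of the GENCODE gene model's start for Irs2 and 23 bases upstream for Irs1.
In Irs2 the E-box, from -44 to -39 counted from the start, ran straight into the second motif, from -38 to -31. In Irs1 they lay apart, at -115 to -110 and -33 to -26. Within 250 bases upstream, on both strands, CACGTG was found in 6.02% and CAAAACAA in 2.21% of 32851 promoters in the table, and of the 7 matched genes only Irs1 and Irs2 held either. TGTTTAC, a FOX factor core found in 3.17% of promoters, was in none of the 7.

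The second pair is shown because Igfbp3 and Igfbp4 were both highest in artery-like cells. Capitals mark a TATA element on the gene's strand, in windows that end at the base before the start, chr11:7213924-7213983 on the minus strand and chr11:99041184-99041243 on the plus strand.
Igfbp3: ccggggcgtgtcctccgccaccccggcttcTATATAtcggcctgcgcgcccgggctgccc
Igfbp4: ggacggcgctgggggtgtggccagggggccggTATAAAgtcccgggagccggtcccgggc
Among all promoters, 0.95% had TATATA and 1.99% had TATAAA starting from -40 to -20. Each was found in 1 of the 7 matched genes, TATATA in Igfbp3 and TATAAA in Igfbp4. These matches describe letters and not binding sites.

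Igfbp4 was the member with the largest artery-to-capillary fold. Levels are given as CPM, the UMIs of a gene per 1e6 UMIs of its class in that library. Values of 3 follow the order untreated, sedentary, running. Igfbp4 stood at 618, 585 and 604 CPM in artery-like cells, against 40.5, 38.3 and 42.4 CPM in capillary-like cells. The artery-to-capillary fold was thus 15.2, 15.3 and 14.2, and the 3 libraries were close to one another on both sides of it. Vein-like cells lay between, at 262, 163 and 257 CPM. The vein-to-capillary log2 ratio was 2.69 (2.42 to 2.97), 2.10 (1.71 to 2.48) and 2.60 (2.29 to 2.91). Lymphatic-like cells had 9, 4 and 59 Igfbp4 UMIs, or 113, 193 and 443 CPM.

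Igfbp3 was also highest in artery-like cells, at 1046, 1210 and 936 CPM, but unlike Igfbp4 it was lower in vein-like than in capillary-like cells. Its capillary level was 259, 357 and 306 CPM and its vein level 125, 121 and 52.1 CPM. The artery-to-capillary fold was 4.04, 3.38 and 3.06. The vein-to-capillary log2 ratio was -1.05 (-1.29 to -0.82), -1.55 (-1.92 to -1.22) and -2.54 (-3.06 to -2.09), so the distance between the classes was largest in the running library. The order artery, capillary, vein held for Igfbp3 in each library, and the order artery, vein, capillary held for Igfbp4. Against vein-like cells the arterial fold was larger for Igfbp3 (8.34, 9.91 and 17.7) than for Igfbp4 (2.36, 3.57 and 2.35). The border between artery-like and capillary-like cells moved with the clustering in the untreated library, where artery-like cells numbered 664 to 1486 over the alternatives.

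Within the arterial class the genes differed between the 2 clusters. Cluster 6, led by Mgp, Gkn3 and Cytl1, had 1433, 1573 and 1222 CPM of Igfbp3, and cluster 3, led by Col8a1, Tgfb2 and Hey1, had 960.5, 879 and 718 CPM. For Igfbp4 cluster 6 had 1062, 604 and 682 CPM and cluster 3 had 519.5, 568 and 544 CPM. Both genes were higher in cluster 6 than in cluster 3 in each library, for Igfbp4 by little in the sedentary library.

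**Figure D1:**
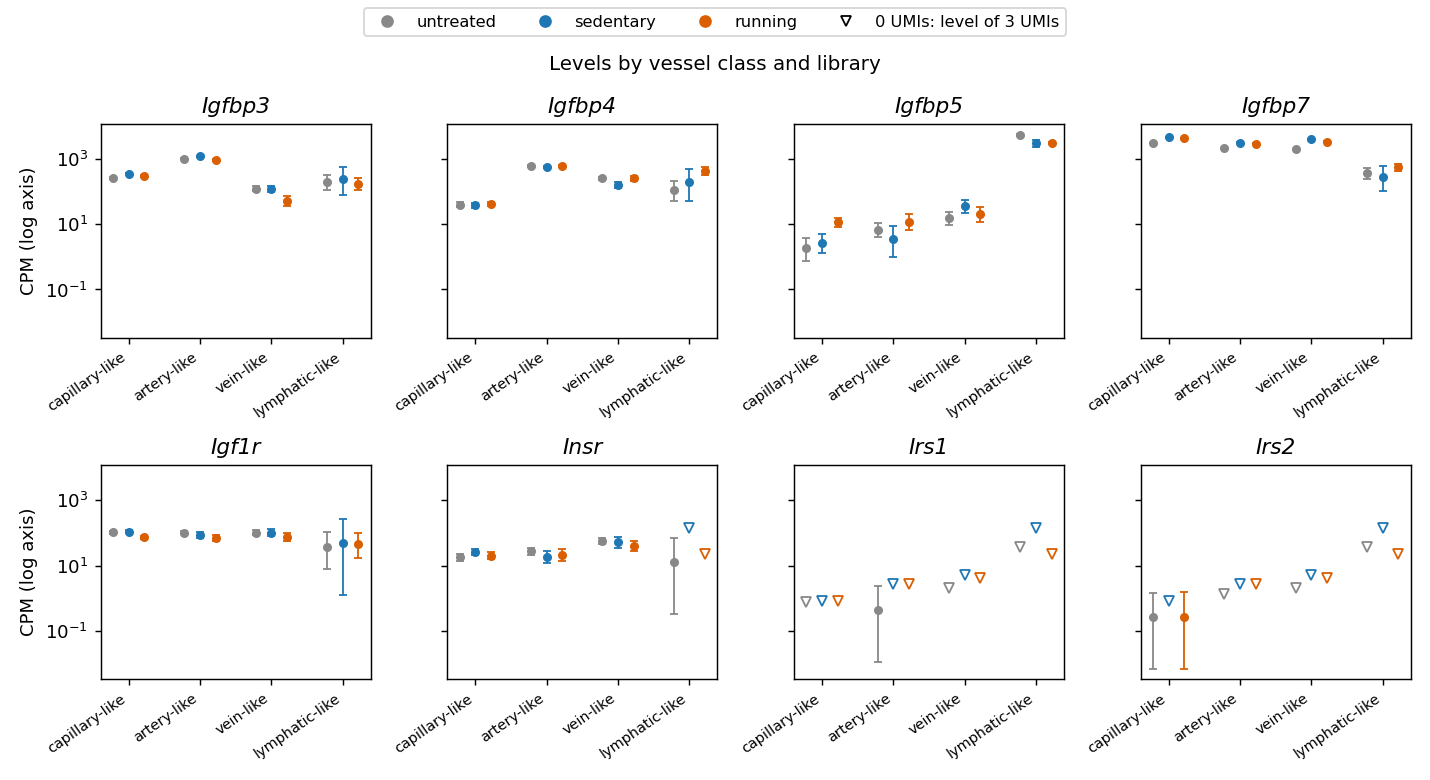
Level of each gene (CPM, log axis) in 4 vessel classes and 3 libraries, with exact Poisson 95% intervals for counting error. Open triangles stand at the level that 3 UMIs would give where a gene had 0 UMIs. Igfbp4 in artery-like cells sits near 600 CPM in all libraries, Igfbp5 stands at 3041 to 5525 CPM in lymphatic-like cells, and Irs1 and Irs2 have 0 or 1 UMI in each class and library.

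Cells with an Igfbp3 UMI more often also had an Igfbp4 UMI in the arterial class. To compare cells at one depth, each was thinned to 1000 UMIs, and shallower cells were left out (138, 169 and 73 of the artery-like cells). Of artery-like cells with Igfbp3, 38.98% (34.6 to 43.5), 48.4% (42.0 to 54.8) and 47.5% (39.9 to 55.1) had Igfbp4. Of those without Igfbp3, 22.6% (19.2 to 26.5), 24.8% (19.3 to 30.9) and 31.5% (25.6 to 37.9) did. The intervals of the pair did not overlap in any of the 3 libraries. In capillary-like cells the shares were 3.63%, 4.57% and 6.51% with Igfbp3 and 3.51%, 2.75% and 2.94% without it. All of these were below the Igfbp4 share of erythrocyte-like cells at the same depth, 2 of 27 (7.41%, 0.91 to 24.3), and no difference is read from them. The artery-like cells came from clusters 3 and 6, of which cluster 6 was higher in both genes.

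**Figure D2:**
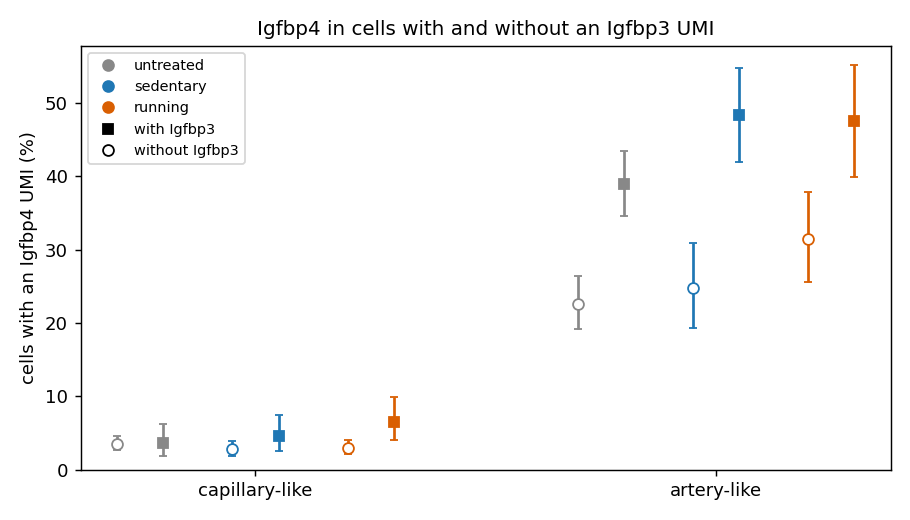
Share of cells with an Igfbp4 UMI (%) among cells with (squares) and without (open circles) an Igfbp3 UMI, at 1000 UMIs a cell, with exact Clopper-Pearson 95% intervals. In artery-like cells the squares lie at 38.98% to 48.4% and the circles at 22.6% to 31.5%.

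Igfbp5 marked the lymphatic-like cells. There it had 439, 63 and 415 UMIs in 27, 10 and 44 cells, a level of 5525, 3041 and 3113 CPM. In vein-like cells the level was 15.5, 35.4 and 20.6 CPM, in artery-like cells 6.91, 3.57 and 12.1 CPM, and in capillary-like cells 1.83, 2.73 and 11.6 CPM. The lymphatic-to-vein log2 ratio was 8.45, 6.40 and 7.20. UMIs of Igfbp5 were found in 21 of 27, 6 of 10 and 34 of 44 lymphatic-like cells. In vein-like cells single cells carried much of the count: 14 of 22 untreated, 19 of 21 sedentary and 7 of 15 running UMIs came from 1 cell in each library. Outside the endothelium, a pericyte and smooth muscle-like cluster separated at Leiden resolution 2.0 had 1007, 998 and 1307 CPM.

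Igfbp7 was broad in blood vessels and low in lymphatic-like cells. Its level was 3111, 4626 and 4318 CPM in capillary-like, 2194, 3153 and 2960 CPM in artery-like and 1992, 4013 and 3389 CPM in vein-like cells, against 365, 290 and 563 CPM in lymphatic-like cells. The lymphatic-to-capillary log2 ratio was -3.07, -3.88 and -2.93. The untreated library was the lowest of the 3 in each of the blood vessel classes. A higher level was seen in a cluster of 58, 47 and 36 cells that resolution 2.0 split off, with 8817, 12920 and 10590 CPM. The marker lists scored it as platelet with endothelial genes, but Penk led it, so no cell type name is used for it. At 1000 UMIs a cell 91.4% (90.6 to 92.2) of capillary-like cells had an Igfbp7 UMI, and so did 16 of 27 erythrocyte-like cells (59.3%, 38.8 to 77.6), a cell type that should lack it. The share in lymphatic-like cells (29.5%, 19.7 to 40.9) was below that background, and no expression is read from it.

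For Igfbp3 the same background was 5 of 27 erythrocyte-like cells (18.5%, 6.30 to 38.1). The capillary share of 19.5% (18.4 to 20.6) was within that interval, and the artery share of 47.9% (45.6 to 50.1) was above it. The vein share of 7.38% (5.77 to 9.26) was below the capillary share at the same depth. It was also below the background share of 18.5%, and no expression is read from it. Without thinning, 48.6% of erythrocyte-like, 25.4% of capillary-like, 59.8% of artery-like and 18.5% of vein-like cells had an Igfbp3 UMI. Those shares are at unlike depth, with a median of 2687 UMIs in erythrocyte-like and 1397, 946.5 and 1342 UMIs in capillary-like cells.

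The receptor genes did not share the arterial pattern. Igf1r was nearly level across blood vessels within a library, with 105, 109 and 72.8 CPM in capillary-like, 103, 87.6 and 70.0 CPM in artery-like and 102, 103 and 75.5 CPM in vein-like cells. In each library the intervals of the artery-to-capillary and vein-to-capillary ratios of Igf1r included 0, so neighbours in that order did not differ beyond counting error. Lymphatic-like cells had 3, 1 and 6 Igf1r UMIs, too few to place. At 1000 UMIs a cell 8.06% of capillary-like, 7.86% of artery-like and 8.57% of vein-like cells had an Igf1r UMI, and 0 of 27 erythrocyte-like cells did, which allows a share of up to 11.1% (3 cells of 27). Without thinning 5 of 35 erythrocyte-like cells (14.3%, 4.81 to 30.3) had an Igf1r UMI, as did 11.9% of capillary-like, 15.1% of artery-like and 21.2% of vein-like cells. At full depth the capillary, artery and vein shares were thus all within the interval of that background. These unthinned shares were not at one depth. Erythrocyte-like cells had a median of 2687 UMIs, and capillary-like cells 1397, 946.5 and 1342 by library.

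Insr was highest in vein-like cells, at 57.6, 52.2 and 41.2 CPM, against 18.0, 26.0 and 20.2 CPM in capillary-like and 28.1, 18.8 and 21.5 CPM in artery-like cells. The vein-to-capillary log2 ratio was 1.68 (1.20 to 2.16), 1.02 (0.37 to 1.61) and 1.04 (0.36 to 1.65), with every interval above 0. The artery-to-capillary ratio of Insr was 0.64 (0.13 to 1.15) in the untreated library and its interval included 0 in the other two. At 1000 UMIs a cell the Insr share was 4.34% (3.12 to 5.86) of vein-like and 1.62% (1.28 to 2.01) of capillary-like cells. Of erythrocyte-like cells 0 of 27 had an Insr UMI, which allows a share of up to 11.1% (3 cells of 27). Neither share can therefore be set above that background. Among capillary-like cells under 1000 UMIs Insr stood at 27.05, 50.1 and 40.7 CPM, near the vein level in the sedentary and running libraries. Among deeper cells it stood at 16.74, 16.15 and 16.17 CPM in capillary-like and 56.5, 53.7 and 41.9 CPM in vein-like cells. Summed over each class and among deeper cells, Insr was thus highest in vein-like cells and Igf1r nearly flat. In shallow capillary-like cells the Insr pattern did not hold in each library.

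The substrate genes were close to absent. Over the vessel classes and libraries Irs1 had 1 UMI and Irs2 had 2 UMIs of 18678195 in all, and a count of 3 there would be 0.161 CPM. All kept cells together held 8 UMIs of Irs1 and 14 of Irs2. At Leiden resolution 2.0 the pericyte and smooth muscle-like cells had 3, 0 and 2 UMIs of Irs1 and 3, 0 and 7 of Irs2, from class totals of 126121, 20039 and 101766 UMIs. No comparison between groups was possible for either gene. The kit reads the 3′ end of transcripts, and whether the ends of these transcripts were caught was not tested.

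The study compared running with sedentary mice. A gene was counted as different where it differed by at least 1.5-fold and had at least 100 UMIs over the 3 libraries in its class. Of the 8 genes, 5 reached that number in capillary-like cells (Igfbp3, Igfbp4, Igfbp7, Igf1r and Insr), and Igfbp5, Irs1 and Irs2 did not. Against the sedentary library 1 of the 5, Igf1r, was lower in the running library and 0 were higher. Of all 8771 genes measured that well, 2.87% were lower and 2.69% were higher by that fold. The members were selected on levels in these counts, so nothing is read from the count beside these shares.

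Igf1r was lower in the running library in each blood vessel class. In capillary-like cells it had 403, 400 and 270 UMIs. Summed over cells of all depths, the untreated and sedentary levels (105 and 109 CPM) were alike and the running level (72.8 CPM) stood below both. There 2.87% of genes had a running-to-sedentary ratio as low as that of Igf1r or lower. Nothing is read from that share, since Igf1r was selected on levels in these counts. The log2 ratio of running to sedentary was -0.585 (-0.814 to -0.36), which is at the edge of 1.5-fold. It was -0.32 (-0.78 to 0.13) in artery-like and -0.44 (-1.0 to 0.10) in vein-like cells, where both intervals included 0. Against the untreated library it was -0.53 (-0.76 to -0.31), -0.55 (-0.95 to -0.17) and -0.43 (-0.91 to 0.02), a comparison that shares the running library with the first. Untreated to sedentary it was -0.05 (-0.26 to 0.15), 0.23 (-0.12 to 0.59) and -0.02 (-0.45 to 0.44).

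The size of the Igf1r difference moved with cell depth. Among capillary-like cells under 1000 UMIs, which numbered 602, 1602 and 778, Igf1r stood at 129, 178 and 94.4 CPM. Among deeper cells it stood at 102, 81.5 and 68.6 CPM in 1899, 1454 and 1598 cells. The untreated-to-sedentary log2 ratio was -0.45 (-0.90 to -0.04) in the shallow and 0.32 (0.07 to 0.58) in the deep cells. These 2 libraries were thus alike in the class sum but not at either depth. The running-to-sedentary log2 ratio was -0.90 (-1.36 to -0.48) in the shallow and -0.25 (-0.53 to 0.03) in the deep cells. Without the low-depth cluster it was -0.28, and with cells thinned to 1000 UMIs -0.13, so the difference was smaller among deep cells than among all cells. By cluster, Igf1r was lower in the running library in clusters 1, 2, 3, 7 and 8 (log2 -0.71, -0.29, -0.79, -0.98 and -0.71), the interval of cluster 2 including 0. It was 0.32 (-0.39 to 1.04) in cluster 6 and near 0 in clusters 0 and 10 (-0.05 and -0.10).

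**Figure D3:**
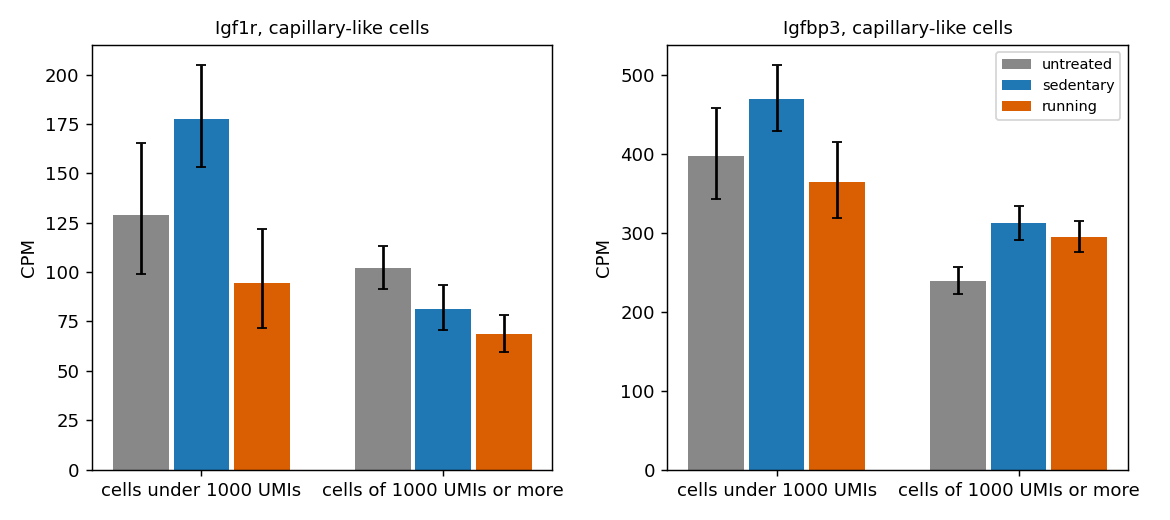
Level (CPM) of Igf1r and Igfbp3 in capillary-like cells under 1000 UMIs and of 1000 UMIs or more, by library, with exact Poisson 95% intervals. The sedentary bar for Igf1r is at 178 CPM in shallow and 81.5 CPM in deep cells, while the running bars are at 94.4 and 68.6 CPM.

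Igfbp3 summed over each blood vessel class was lower in the running than in the sedentary library. The log2 ratio was -0.22 (-0.34 to -0.11) in capillary-like, -0.37 (-0.49 to -0.25) in artery-like and -1.21 (-1.83 to -0.63) in vein-like cells. The vein-like cells had 178, 72 and 38 UMIs, and their running level of 52.1 CPM stood below both other libraries, with a ratio of -1.25 (-1.81 to -0.75) to the untreated one. In each library the vein level was below that of erythrocyte-like cells (197, 273 and 195 CPM, from 2, 13 and 9 UMIs). The part of RNA from other cells in the vein ratios was not tested. In capillary-like cells the running level lay between the others, 0.24 (0.12 to 0.37) above the untreated one on the log2 scale. The capillary ratio to sedentary was -0.03 without the low-depth cluster and -0.08 (-0.22 to 0.06) in cells of 1000 UMIs or more, against -0.36 (-0.60 to -0.14) in shallower cells. By cluster the capillary ratio went both ways: 0.28 (0.08 to 0.49) in cluster 8 and 0.27 (-0.68 to 1.24) in cluster 0, but -0.12 (-0.32 to 0.08) in cluster 2, -0.63 (-1.31 to -0.001) in cluster 5 and -0.66 (-0.93 to -0.40) in cluster 7. The vein ratio in deep cells was -1.20 (-1.83 to -0.61), close to that over all vein-like cells. In vein clusters 1 and 10 the ratios were -0.73 (-1.49 to 0.01) and -2.22 (-3.71 to -1.12).

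In vein-like cells 5 genes reached 100 UMIs, and at 1.5-fold Igfbp4 was higher and Igfbp3 lower in the running library, 1 gene each, beside 4.96% and 4.69% of all 4096 genes measured. Nothing is read from the share beside Igfbp3, since its low running level here was among the values on which the genes were selected. Igfbp4 had a log2 ratio of 0.65 (0.29 to 1.02). The sedentary library stood low here, at 163 CPM, while the running and untreated libraries were at 257 and 262 CPM, and untreated to sedentary was 0.68 (0.36 to 1.02). In artery-like cells 0 of 5 genes were higher and 0 lower by 1.5-fold, beside 3.69% and 4.09% of 5861 genes. Igfbp4 there had ratios of 0.05 (-0.11 to 0.21) to sedentary and -0.03 (-0.17 to 0.10) to untreated.

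Igfbp5 showed a higher level in running capillary-like cells, from 7, 10 and 43 UMIs (log2 ratio to sedentary 2.03, 1.07 to 3.24). The 43 UMIs came from 43 cells with 1 UMI each. Ccl21a, the chemokine that defines lymphatic endothelium, moved with it in the sums of the same class, with 14, 44 and 322 UMIs. Whether single cells held both was not tested. Ccl21a was also highest in the running library in artery-like (9, 18 and 77 UMIs) and vein-like cells (5, 4 and 61 UMIs). Igfbp5 had 16, 4 and 13 UMIs in artery-like and 22, 21 and 15 UMIs in vein-like cells. Over all 9 lymphatic markers, Ccl21a among them, the summed level in capillary-like cells was 62.5, 95.9 and 172 CPM. Of the 9 markers 8 or 9 had UMIs, with Pdpn at 0 in the running library. The sums rest on 239, 351 and 638 UMIs, of which Ccl21a gave 14, 44 and 322. Nearly all of the rise from sedentary to running was thus Ccl21a, and the other markers as a set did not share it. Single markers differed: Lyve1 had 1, 1 and 11 UMIs, while Pdpn was at 0 in the running library. Igfbp5 UMIs per Ccl21a UMI in the running library were 0.134 (0.0948 to 0.184) in capillary-like and 0.103 (0.0931 to 0.114) in lymphatic-like cells, intervals that overlap. Markers of pericytes and smooth muscle, which also carry Igfbp5, summed to 188, 165 and 236 CPM in capillary-like cells, with Cnn1 at 0 in each library. The part of RNA from other cells in this difference was not tested. With each library clustered alone, where the sedentary library gave no lymphatic-like class, the ratio turned to -0.43.

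In lymphatic-like cells the sedentary and running levels of Igfbp5 were alike (log2 ratio 0.02, -0.35 to 0.44), and the untreated level was above both, by 0.85 (0.48 to 1.27) against sedentary and with running to untreated at -0.83 (-1.02 to -0.63). The sedentary class had only 10 cells, and 1 of them gave 26 of its 63 UMIs. In the untreated and running classes 1 cell gave 80 of 439 and 72 of 415 UMIs. The intervals do not cover this spread between cells, so the order of the libraries is not read from them.

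Summed over each class, Igfbp7 differed little between the running and sedentary libraries. The log2 ratios were -0.10 (-0.13 to -0.07) in capillary-like, -0.09 (-0.16 to -0.02) in artery-like and -0.24 (-0.33 to -0.16) in vein-like cells. By cluster the ratio went both ways. Among capillary clusters it was 0.44 (0.36 to 0.52) in cluster 7, -0.52 (-0.78 to -0.26) in cluster 4 and -0.12 (-0.17 to -0.07) in cluster 8. In capillary clusters 0, 2 and 5 the intervals included 0. It was 0.157 (0.045 to 0.269) and -0.19 (-0.28 to -0.10) in artery clusters 3 and 6. In vein clusters 1 and 10 it was 0.16 (0.03 to 0.29) and -0.365 (-0.477 to -0.253). The larger contrast was with the untreated library, with untreated-to-sedentary log2 ratios of -0.57, -0.52 and -1.01 in the 3 classes. The untreated library stood apart in its clusters as well. Red blood cell genes summed to 179, 962 and 659 CPM and 24 immediate early genes to 17460, 13120 and 18870 CPM in capillary-like cells. Whether these bear on Igfbp7 was not tested.

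Insr had running-to-sedentary log2 ratios of -0.36 (-0.82 to 0.09) in capillary-like, 0.19 (-0.72 to 1.12) in artery-like and -0.34 (-1.12 to 0.43) in vein-like cells. All 3 intervals included 0, and a difference was not detectable at this depth.

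In capillary-like cells none of the 5 genes passed 1.5-fold between the running and the untreated library, where 12.0% of genes were higher and 7.08% lower, or between the untreated and the sedentary library, where 6.49% were higher and 12.8% lower. Igf1r at -0.53 and Igfbp7 at -0.57 came nearest. None of the 5 differed by that fold from both other libraries in the running one, as 1.12% (higher) and 0.901% (lower) of genes did. Scaling the class sums by TMM moved the median of all genes by -0.11 for running to untreated and by 0.11 for untreated to sedentary in capillary-like cells, and by less than that for running to sedentary.

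**Figure D4:**
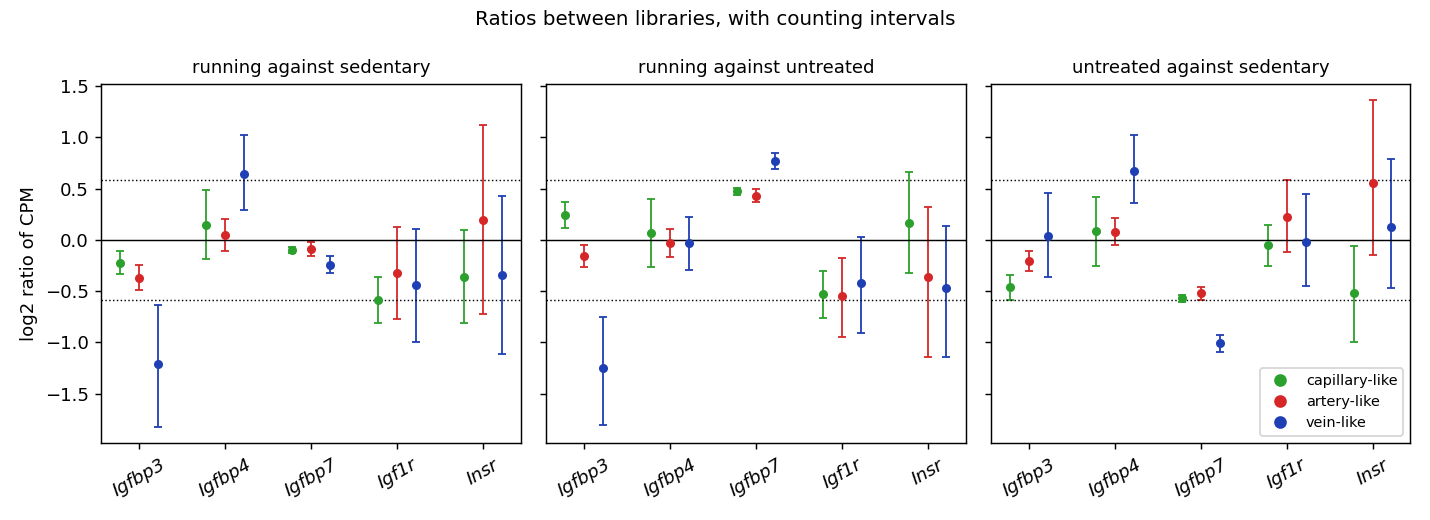
Log2 ratios of CPM between libraries for the 5 genes with enough UMIs, in capillary-, artery- and vein-like cells, with exact Poisson 95% intervals of each ratio. Dotted lines mark 1.5-fold. Igf1r lies below 0 in all classes for running against both other libraries, and Igfbp3 in vein-like cells lies at -1.21 and -1.25.

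Other genes of the pathway were taken from a list of 57, of which 39 had at least 100 UMIs in capillary-like cells. Between running and sedentary 2 were higher by 1.5-fold and 0 were lower, beside 2.69% and 2.87% of all genes, and the median log2 ratio of the list was -0.02, as it was over all genes (-0.02). The higher genes were Gab1, an adaptor below receptor kinases (13.9 to 21.6 CPM, log2 0.63, 0.11 to 1.17), and Stc1, whose product can inhibit PAPP-A (16.7 to 25.1 CPM, 0.59, 0.11 to 1.08). Gab1 was higher still in the untreated library, at 25.1 CPM. Of the 13 genes of PI3K, AKT and their phosphatases, all 13 were measured and the running-to-sedentary ratios ran from -0.44 to 0.12. Akt1 was the lowest of them, at 95.7, 176 and 130 CPM (-0.44, -0.61 to -0.27).

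The genes of the list with the highest sedentary level were Rheb, the GTPase that activates mTORC1 (210, 236 and 228 CPM), Akt1, and Gsk3b, a kinase restrained by AKT (216, 136 and 155 CPM). For the ligand gene Igf1 the untreated library stood alone, at 32.7 CPM against 11.2 and 9.98 CPM. The untreated-to-sedentary log2 ratio of Igf1 was 1.53 (1.02 to 2.09), and running to sedentary was -0.17 (-0.85 to 0.51). Igf2r, the scavenging IGF2 receptor, stood at 61.9, 53.0 and 45.3 CPM. The 5 other binding protein genes had too few UMIs to be measured, 4 of them at 0. Between untreated and sedentary 5 genes were higher (Igf1, Gab1, Pik3r1 and Gsk3b among them) and 4 lower (Shc1, Sh2b1, Akt1 and Akt2), beside 6.49% and 12.8% of all genes, with a list median of -0.11, as over all genes (-0.11). Without the low-depth cluster 8 were higher and 4 lower. Between running and untreated 1 gene was higher (Akt2) and 2 were lower (Igf1 among them), beside 12.0% and 7.08% of all genes.

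**Figure D5:**
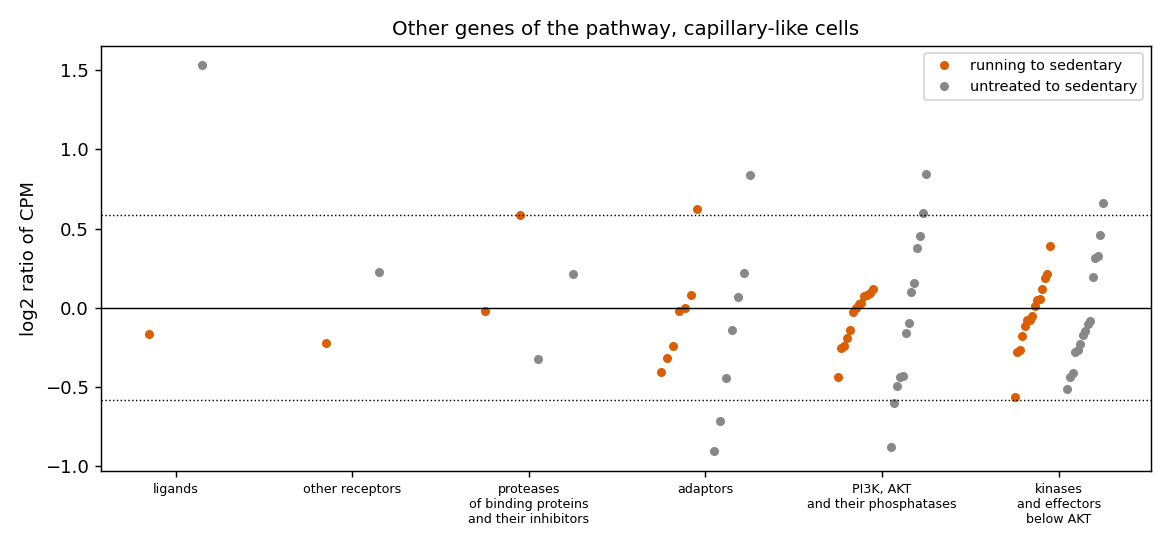
Log2 ratios of CPM in capillary-like cells for the 39 measured genes of the pathway list, by role, running to sedentary (orange) and untreated to sedentary (grey). Dotted lines mark 1.5-fold. The orange points of PI3K, AKT and their phosphatases lie between -0.44 and 0.12, and Igf1 in the untreated library is the highest grey point at 1.53.

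Of 15 genes described as FOXO targets 12 were measured in capillary-like cells. Gadd45a, a stress gene of growth arrest, was the only one past 1.5-fold between running and sedentary (66.1, 34.4 and 59.4 CPM, log2 0.78, 0.46 to 1.11). That is 1 gene higher and 0 lower, beside 2.69% and 2.87% of all genes. The list's median was 0.04 against -0.02 over all genes. Against sedentary 4 were higher in the untreated library (Gadd45a, Fbxo32, Klf6 and Pik3ip1) and 0 were lower, beside 6.49% and 12.8% of all genes, with a median of 0.44 against -0.11. Against untreated 4 were lower in the running library (Txnip, Cdkn1b, Fbxo32 and Pik3ip1) and 0 were higher, beside 7.08% and 12.0% of all genes, with a median of -0.32 against 0.09. The 3 with the highest sedentary level were Txnip (909, 713 and 573.5 CPM), Klf6 (1190, 683 and 821 CPM) and Cited2 (81.5, 89.9 and 101 CPM). For Txnip, which encodes an inhibitor of thioredoxin and of glucose uptake, the running level was the lowest of the 3.

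Genes whose level across classes and libraries was most like that of each member were ranked by Pearson's r of log2(CPM + 1) over 9 values, 3 classes in 3 libraries that share depth and clustering, among 6624 genes. For Igfbp4 these were Ace, which encodes angiotensin-converting enzyme (r = 0.981), Syt15 (0.973) and Avpi1 (0.968). For Igfbp3 they were Tmem178 (0.988), Fkbp4 (0.982) and Sipa1l2 (0.982). For Igf1r they were Tead1, a transcription factor gene of the Hippo pathway (0.961), Trappc8 (0.94) and Slc43a3 (0.905). For Insr they were Atp2b4 (0.957), the prostaglandin transporter gene Slco2a1 (0.957) and Acer3 (0.955). For Igfbp7 they were Stap2 (0.966), Serpinh1 (0.964), the collagen chaperone gene, and Sh3tc1 (0.961). No member was among the nearest 3 of another.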

How the data were processed

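The authors deposited UMI counts of each gene in each barcode for 3 libraries, which were built with 10x Chromium 3' chemistry per the labels' protocols. Counts came from Cell Ranger 2.0.2 on GRCm38.p5, per the submitters' processing notes. Cell calling and annotation are not given in the sources used here. The genes, lists and rules described here were chosen with earlier results of these data known.

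Barcodes with at least 300 genes and at most 10% mitochondrial UMIs were kept. Scrublet marked 0 barcodes and did not work as a doublet filter, so an alternative left out the highest 5% of scores. Counts were scaled to 10000 a cell and clustered in scanpy 1.11.5 (2000 variable genes without the 8 members, 4 of which would have been among them, 30 components, 15 neighbours, Leiden resolution 1.0). Names came from 18 marker lists, with score limits set after the data were seen, so a difference from the study may come from rebuilt names.

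UMIs were summed per class and library. Log2 ratios used a prior count of 0.5 with exact Poisson 95% intervals of each ratio, and shares exact Clopper-Pearson intervals. With 1 library a group, groups were not tested. The scripts were checked on simulated counts. All 8 members were described. Of the pathway and FOXO lists, genes past 1.5-fold between running and sedentary capillary-like cells and the 3 with the highest sedentary CPM were named by rule, and other list genes after their values were seen. Of the pathway list 1 gene is counted but not reported here. Alternatives changed the clustering, filters, depth, scaling (edgeR 4.0.16, TMM), prior count and thresholds.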

Additional observations from a re-analysis of the deposited data

How the results depend on the processing

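Of 844 alternative values for 91 results, 702 stayed within the main value's counting interval or within 1.5 times the count, 136 moved and 6 turned their direction. All 6 that turned were on Igfbp5 or Igfbp7. With each library clustered alone, Igfbp5 running to sedentary was -0.43 in capillary-like and -0.85 in artery-like cells, and untreated to sedentary -1.46 in artery-like cells. With thinning, running to untreated in artery-like cells was -0.071. The Igfbp7 share of capillary-like cells, running minus sedentary, was 5.18 points without thinning and 1.16 points at 500 UMIs. The cause was not tested.

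For running to sedentary in capillary-like cells, Igfbp3 was -0.37 with libraries clustered alone, -0.069 with at least 500 genes a cell and -0.031 without the low-depth cluster, an alternative chosen after seeing the data. Igfbp7 was -0.13, -0.18 and -0.23 under the same settings and -0.23 with thinning. Igf1r was -0.28 without that cluster and -0.13 with thinning. The count of members lower was 0 at resolution 0.5, with 500 genes, without that cluster, with thinning and with a prior count of 2. Between running and untreated, 1 member was higher with libraries clustered alone, with 500 genes and without the highest doublet scores, and 1 was lower with 500 genes, without the low-depth cluster and with TMM. Between untreated and sedentary, 3 members were lower at resolution 2.0, with libraries alone and without the highest doublet scores, 2 with 500 genes, and 1 without the low-depth cluster or with thinning.

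The pathway list had 1 gene higher at resolution 0.5, with libraries alone, without the low-depth cluster and with TMM, and 0 at resolution 2.0. It had 1 gene lower without that cluster and with thinning, and 3 at the lower fold limit tried. Class ratios nearest 0 kept their direction. Igfbp3 artery to capillary was 1.77 with members among the variable genes, 1.48 at resolution 0.5 and 1.41 at resolution 2.0. Igfbp4 artery to capillary was 3.54 at resolution 2.0 and 3.46 with libraries alone. Igfbp3 vein to capillary was -1.42 with members among the variable genes and -0.70 with 500 genes, and Igfbp5 lymphatic to vein was 7.22 with libraries alone. Clustered alone, the sedentary library gave no lymphatic-like class. No paired analysis was possible because each group had 1 library. Depth limits Igfbp5, Irs1 and Irs2, which had fewer than 100 UMIs in capillary-like cells.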
